A study of Mus musculus with 4 samples.

Results

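The genes described here encode voltage-gated calcium channels, voltage-gated sodium channels, transient receptor potential (TRP) channels and the calcium release channels of the endoplasmic reticulum. They were chosen by symbol, as every gene of the deposited table that belongs to the *Cacna*, *Cacnb*, *Cacng*, *Scn*, *Trpc*, *Trpm*, *Trpv*, *Ryr* or *Itpr* series, with *Cacna1d* left out. The rule found 65 of the 23997 genes in the table. One sodium channel gene, listed as *Scn2a1*, fell outside the rule because of its older symbol.

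The RNA-Seq experiment compared hair cell (HC) progenitors from the cochlea of C57BL/6 mice at P3, sorted for EGFP from Lgr5-EGFP-IRES-CreERT2 mice (Lgr5+ progenitors) and from Lgr6-EGFP-IRES-CreERT2 mice (Lgr6+ progenitors). The short forms Lgr5+ and Lgr6+ cells mean these progenitors, and where 2 values of a gene stand without a name the Lgr5+ value comes first. In each line the EGFP reports the *Lgr5* or *Lgr6* locus, and every cell analysed carried the reporter allele of its line. The sample labels list 2 libraries per population, but the table holds 1 value per gene and population, with the replicates already combined, as FPKM, a fragment count scaled to transcript length and sequencing depth. According to the methods, the RNA of each population was extracted together and then divided, so replicates would show technical spread. This spread is unknown here, and none of the differences was tested.

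Voltage-gated channels open when the membrane depolarizes. Sodium channels carry the fast upstroke of an action potential, and calcium channels turn electrical activity into calcium entry, for example at the ribbon synapse of an HC. A calcium channel is built from a pore-forming subunit with α2δ and β subunits, and a sodium channel from a large α subunit with small β subunits. TRP channels are cation channels opened by temperature, stretch, lipids or intracellular calcium. IP3 receptors and ryanodine receptors release calcium from the endoplasmic reticulum. In the neonatal cochlea, supporting cells (SCs) show spontaneous calcium waves that depend on IP3 receptors, and immature HCs fire calcium action potentials.

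A log2 change is log2(FPKM + 1) in Lgr6+ progenitors minus log2(FPKM + 1) in Lgr5+ progenitors, so it is negative where Lgr5+ progenitors were higher, and adding 1 makes the differences of weakly expressed genes smaller. A gene was counted as higher in a population when its FPKM reached 1 in at least 1 population and the difference was at least 1.5-fold on this scale. By this count 15 of the 65 channel genes (23.1%) were higher in Lgr6+ progenitors and 5 (7.69%) in Lgr5+ progenitors. Among all genes the shares were 15.9% and 13.1%. With at least 2-fold in place of 1.5-fold, 7 channel genes were higher in Lgr6+ progenitors and 2 in Lgr5+ progenitors, where the shares of all genes were 10.2% and 6.56%. Of the 20 counted channel genes, 75% were thus higher in Lgr6+ progenitors. Among the channel genes counted after each scaling, this share was 85.7% with the same summed FPKM in both populations and 55.6% after quantile normalization. The shares of all genes moved the same way. With the same sum they were 20.9% toward Lgr6+ and 9.03% toward Lgr5+ progenitors, and after quantile normalization 13.8% and 14.8%. No counted gene changed sides under these scalings. Scaling to the same sum could not have moved a gene that far, since the Lgr6+ sum over all genes was 83.3% of the Lgr5+ sum.

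Most of the channel genes were expressed at a low level. An FPKM of at least 1 was reached by 22 of the 65 genes in Lgr5+ progenitors and by 28 in Lgr6+ progenitors, and 30 reached it in one or both populations. Another 20 genes had values above 0 and under 1, and 15 genes were listed at 0 in both populations. The median log2 change over all 65 genes was 0.06, and over all genes of the table it was 0.00. The summed FPKM of the channel genes was 263 in Lgr5+ and 240.2 in Lgr6+ cells, and *Trpm3* alone made up 35.4% and 27.01% of these sums.

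The share of genes counted in each direction differed with the level across the whole table. Among all genes whose higher FPKM lay from 1 to under 5, 41.2% were higher by 1.5-fold or more in Lgr6+ progenitors and 21.1% in Lgr5+ progenitors. Of the 18 channel genes at that level 10 were higher in Lgr6+ progenitors and 3 in Lgr5+ progenitors. Among all genes whose higher FPKM was at least 5, 24.1% were higher in each direction. Of the 12 channel genes at that level 5 were higher in Lgr6+ progenitors and 2 in Lgr5+ progenitors. These strata were chosen after the values were seen.

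**Figure D1:**
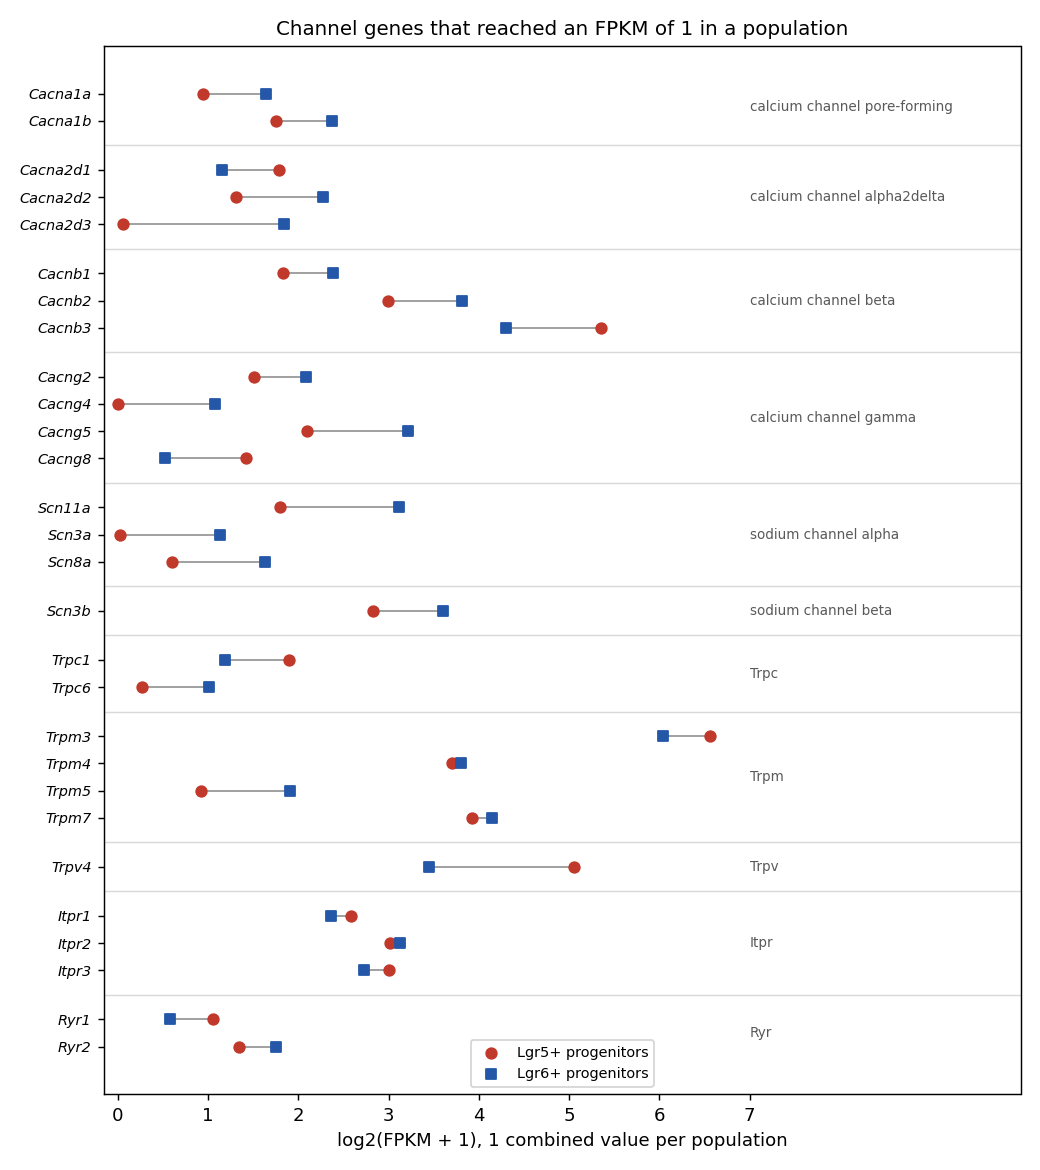
Channel genes that reached an FPKM of 1, 28 of them, grouped by family, with log2(FPKM + 1) on the horizontal axis, circles for Lgr5+ progenitors and squares for Lgr6+ progenitors. The square lies to the right for all sodium channel genes shown, whereas *Cacnb3* and *Trpv4* are the well expressed genes with the circle to the right by at least 1.5-fold.

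The TRP genes held the most highly expressed channel gene of both populations. *Trpm3* encodes a heat- and steroid-sensitive cation channel and lies at chr19:22139117-22989884 of the GRCm38 build, which the other positions also refer to. Its FPKM was 93.2 in Lgr5+ and 64.9 in Lgr6+ cells, which ranked it 1139 and 1493 among all genes of the table. Its log2 change of -0.52 did not reach 1.5-fold.

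*Trpv4* had the largest log2 change toward Lgr5+ progenitors of any channel gene counted, although the FPKM ratio of *Cacng8* was larger, 3.84 against 3.26. *Trpv4* encodes a channel opened by osmotic and mechanical stimuli and lies at chr5:114622154-114658421. The FPKM was 32.2 in Lgr5+ and 9.88 in Lgr6+ cells, a log2 change of -1.61. The other 5 *Trpv* genes stayed under an FPKM of 0.5, and *Trpv4* made up 98.5% of the family's summed FPKM in Lgr5+ and 97.99% in Lgr6+ cells. *Trpv1*, *Trpv3* and *Trpv5* were listed at 0 in both populations. *Trpv6*, an epithelial calcium channel, had 0.484 and 0.0491, and *Trpv2* was listed at 0 in Lgr5+ progenitors with 0.154 in Lgr6+ progenitors.

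Among the remaining *Trpm* genes, the closely matched pair were *Trpm7* and *Trpm4*. *Trpm7*, a magnesium-permeable channel fused to a kinase, had an FPKM of 14.2 in Lgr5+ and 16.7 in Lgr6+ cells. *Trpm4*, a channel for monovalent cations that is opened by intracellular calcium, had 11.995 and 12.9. Both were less than 1.5-fold apart. *Trpm5*, the close relative of *Trpm4* that is known from taste cells, was 3.08 times as high in Lgr6+ progenitors, with an FPKM of 0.893 against 2.75 and a log2 change of 0.99. *Trpm2* and *Trpm6* stayed under an FPKM of 1, and *Trpm1* and *Trpm8*, the cold receptor, were listed at 0 in both populations.

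The *Trpc* genes, whose channels open downstream of phospholipase C, were low throughout. In Lgr5+ progenitors the leading member was *Trpc1*, with an FPKM of 2.72 against 1.27 in Lgr6+ cells and a log2 change of -0.71. *Trpc6* and *Trpc7* encode channels that are opened by diacylglycerol, and both had their higher value in Lgr6+ progenitors. *Trpc6* had 0.202 and 1.02, and *Trpc7* was listed at 0 in Lgr5+ progenitors with 0.772 in Lgr6+ progenitors, under the minimum of 1. *Trpc5* went the other way, with 0.9998 in Lgr5+ and 0.300 in Lgr6+ cells, just under the minimum. *Trpc2* was listed at 0 in Lgr5+ progenitors with 0.439 in Lgr6+ progenitors, and *Trpc4* with 0.0147. The loci of *Trpc2* and *Trpc5* are merged with those of overlapping genes, so their values are uncertain.

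Of the 13 sodium channel genes, 9 for α and 4 for β subunits, 5 were counted as higher in Lgr6+ progenitors and none was counted as higher in Lgr5+ progenitors, beside the 15.9% and 13.1% of all genes. *Scn8a* and *Scn3a* reached the minimum in Lgr6+ progenitors alone, at a level where 41.2% of all genes were higher in that population. After quantile normalization *Scn3a* was no longer counted and *Scn2b* was counted as higher in Lgr5+ progenitors.

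*Scn11a*, at chr9:119753765-119825456, was the leading α subunit gene of both populations. It encodes NaV1.9, a channel with slow, persistent current that is best known from pain-sensing neurons. The FPKM was 2.48 in Lgr5+ and 7.68 in Lgr6+ cells, a log2 change of 1.32. *Scn8a*, which encodes NaV1.6, the main channel of mature axon initial segments, had 0.516 and 2.10, a log2 change of 1.03. *Scn3a*, which encodes NaV1.3, the channel of the embryonic brain, had 0.0127 in Lgr5+ and 1.19 in Lgr6+ cells, a log2 change of 1.11.

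Other α subunit genes were close to 0. *Scn1a*, *Scn7a* and *Scn9a* had at most 0.0588 in either population. The muscle gene *Scn4a* and the sensory neuron gene *Scn10a* were listed at 0 in both. The gene listed as *Scn2a1* had 0.461 and 0.562.

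*Scn3b*, which encodes a β subunit and lies at chr9:40269216-40291618, stood above *Scn11a* in both populations, with an FPKM of 6.08 in Lgr5+ and 11.2 in Lgr6+ cells, a log2 change of 0.78. *Scn2b* had 0.705 and 0.281, and *Scn4b* was listed at 0 in both populations.

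Of the 9 pore-forming calcium channel genes included here, *Cacna1b* and *Cacna1a* reached an FPKM of 1, and both were higher in Lgr6+ progenitors. *Cacna1b*, which encodes the N-type channel CaV2.2 of presynaptic terminals and lies at chr2:24603889-24763152, had an FPKM of 2.38 in Lgr5+ and 4.18 in Lgr6+ cells, a log2 change of 0.62. *Cacna1a*, which encodes the P/Q-type channel CaV2.1, had 0.923 and 2.11, a log2 change of 0.69. *Cacna1d*, which encodes the main calcium channel of HCs and was left out by the rule, had 18.6 and 50.2, so it stood above all 9 of these genes in both populations.

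The next genes in level were those of the T-type, R-type and L-type channels. *Cacna1g* and *Cacna1h*, which encode T-type channels, had 0.953 and 0.420 in Lgr6+ progenitors and 0.0680 and 0.0162 in Lgr5+ progenitors. *Cacna1e*, which encodes the R-type channel, had 0.0598 in Lgr5+ and 0.291 in Lgr6+ cells. *Cacna1c*, the L-type channel gene of heart and smooth muscle, had 0.0101 and 0.284, a value that is uncertain because the table merges its locus with that of *Dcp1b*. *Cacna1i*, the retinal gene *Cacna1f* and the skeletal muscle gene *Cacna1s* were listed at 0 in both populations. The 6 pore-forming genes with a value above 0 were thus all higher in Lgr6+ progenitors, 4 of them under the minimum of 1. Among all 2969 genes whose higher FPKM lay above 0 and under 1, 1914 were higher in Lgr6+ and 1055 in Lgr5+ progenitors. The Lgr5+ values of *Cacna1c* and *Cacna1h* were also at the limit of detection described below.

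The auxiliary calcium channel genes went in both directions. *Cacnb3*, at chr15:98632328-98644536, encodes a β subunit that binds the pore from the inside and aids its transport to the membrane. It was the most highly expressed calcium channel gene of the rule in both populations, with an FPKM of 39.8 in Lgr5+ and 18.7 in Lgr6+ cells, a log2 change of -1.05. *Cacnb2*, at chr2:14604306-14987908, went the opposite way, with 6.95 in Lgr5+ and 13.01 in Lgr6+ cells, a log2 change of 0.82. In Lgr5+ progenitors *Cacnb3* was therefore 80.5% of the summed FPKM of the β subunit genes, against 51.6% in Lgr6+ progenitors. *Cacnb1*, the β subunit of skeletal muscle, had 2.55 and 4.22, an FPKM ratio of 1.65. Its log2 change of 0.56 was just under 1.5-fold on the scale with 1 added. *Cacnb4* stayed under 0.3.

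The α2δ subunits are extracellular proteins that raise the number of channels at the membrane. Their genes also split between the populations. *Cacna2d1* had an FPKM of 2.45 in Lgr5+ and 1.23 in Lgr6+ cells, a log2 change of -0.63. *Cacna2d2* had 1.47 and 3.83, a log2 change of 0.97. *Cacna2d3*, at chr14:28904943-29721864, had the largest log2 change toward Lgr6+ progenitors of all channel genes, 1.78, with an FPKM of 0.0378 against 2.57. The table merges its locus with that of *Lrtm1*, which was listed at 0 in both populations. The leading α2δ gene was thus *Cacna2d1* in Lgr5+ and *Cacna2d2* in Lgr6+ cells. *Cacna2d4*, whose locus the table merges with that of *Lrtm2*, stayed under 0.5.

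Of the 8 *Cacng* genes, 4 reached an FPKM of 1. Several γ proteins, among them those of *Cacng2*, *Cacng4*, *Cacng5* and *Cacng8*, are better known as partners of AMPA-type glutamate receptors than as calcium channel subunits. *Cacng5*, at chr11:107874605-107915055, had an FPKM of 3.27 in Lgr5+ and 8.26 in Lgr6+ cells, a log2 change of 1.12. *Cacng4* was listed at 0 in Lgr5+ cells and reached 1.10 in Lgr6+ cells, 1.07 as a log2 change. *Cacng2*, known as stargazin, had 1.85 and 3.23, a log2 change of 0.57, under 1.5-fold on this scale, although the FPKM ratio was 1.75 and the gene was counted with a pseudocount of 0.1 or the same summed FPKM. *Cacng8* was the exception, with 1.68 in Lgr5+ and 0.438 in Lgr6+ cells, a log2 change of -0.90. *Cacng3*, *Cacng6* and *Cacng7* were listed at 0 in both populations, and *Cacng1* had 0.0395 in Lgr6+ progenitors.

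None of the calcium release channel genes was counted in either direction. All 3 IP3 receptor genes were expressed, and none of them differed by 1.5-fold. *Itpr2* had an FPKM of 7.10 in Lgr5+ and 7.75 in Lgr6+ cells, *Itpr3* had 6.99 and 5.61, and *Itpr1* had 4.995 and 4.13. Their log2 changes were 0.11, -0.27 and -0.23, and that of *Itpr2* changed sign after quantile normalization. The ryanodine receptor genes were lower. *Ryr2*, the cardiac form, had 1.54 and 2.38, *Ryr1*, the skeletal muscle form, had 1.07 and 0.497, and *Ryr3* was listed at 0 in both populations. With a pseudocount of 0.1 *Ryr1* was counted as higher in Lgr5+ progenitors and *Ryr2* as higher in Lgr6+ progenitors, and *Ryr1* was also counted after quantile normalization.

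**Figure D2:**
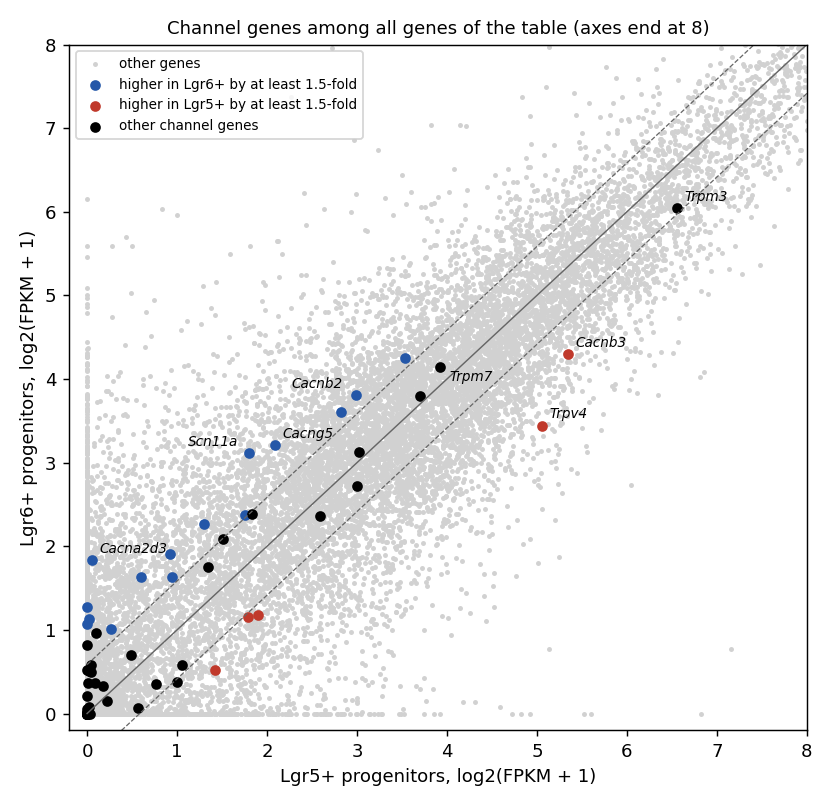
All genes of the table in grey and the 65 channel genes in colour, with log2(FPKM + 1) in Lgr5+ progenitors on the horizontal axis and in Lgr6+ progenitors on the vertical axis, where the solid line marks equal values and the dashed lines 1.5-fold. The 15 genes higher in Lgr6+ progenitors lie mostly at low FPKM, and *Trpv4* and *Cacnb3* stand below the lower dashed line at higher FPKM.

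Several channel genes lie in clusters on the chromosome, and no cluster had more than 2 genes that reached an FPKM of 1. In all, 20 of the 65 genes lay within 300 kb of another and formed 8 such clusters. In the sodium channel cluster of chromosome 9, *Scn11a* reached an FPKM of 7.68 in Lgr6+ progenitors, whereas its neighbour *Scn10a* was listed at 0. On chromosome 2 *Scn1a*, *Scn9a* and *Scn7a* lie side by side and none of them passed 0.0588. On chromosome 11 *Cacng5* was expressed with *Cacng4* at 1.10 and *Cacng1* at 0.0395 in Lgr6+ progenitors. On chromosome 7 *Cacng8* was expressed between *Cacng7* and *Cacng6*, which were listed at 0.

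The low values can be read as fragments to some extent. A gene can hold only whole fragments, so low FPKM values multiplied by transcript length fall on steps. For 7050 genes with 1 annotated transcript, 102 products lay at a step of 0.128 in Lgr5+ progenitors, compared with 9 next to it, and 46 lay at a step of 0.0399 in Lgr6+ progenitors, compared with 9 next to it. Taking 1 fragment as the step, the columns stand for 7.81e+06 and 2.51e+07 fragments, so the Lgr6+ column was 3.21 times as deep. This is the depth of the combined values and not of single libraries, and amplified fragments are not independent molecules.

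On this scale several channel genes were at the limit of detection in Lgr5+ progenitors. With the longest annotated transcript as the length, the Lgr5+ values of 8 channel genes came to about 1 or 2 steps, against 3 genes in Lgr6+ progenitors. *Cacna2d3* held 1.0 step and *Scn3a* held 0.9 in Lgr5+ progenitors, while their Lgr6+ values came to 225 and 279.8 steps. At the Lgr6+ level the Lgr5+ column would have held 70.0 steps for *Cacna2d3* and 87.1 for *Scn3a*. For *Cacng4*, listed at 0 in Lgr5+ progenitors, it would have held 28.4. For *Trpv2*, *Trpc4*, *Cacng1* and *Scn7a*, also listed at 0 there, it would have held 4.2 or fewer. Because the estimate itself can fail and leave a 0, such genes are given without a ratio.

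The genes with the larger values held more steps. *Trpv4* held 762 steps in Lgr5+ and 751 in Lgr6+ cells, *Cacnb3* held 814 and 1226, and *Scn11a* held 109 and 1087. *Cacng8* held 6.1 and 5.1, so its difference rests on few fragments. When at least 10 steps were asked of both populations, a setting chosen after the values were seen, 27 channel genes were left. Of these 10 were higher in Lgr6+ progenitors and 4 in Lgr5+ progenitors. The same count was not made over all genes, so these numbers have no background.

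**Figure D3:**
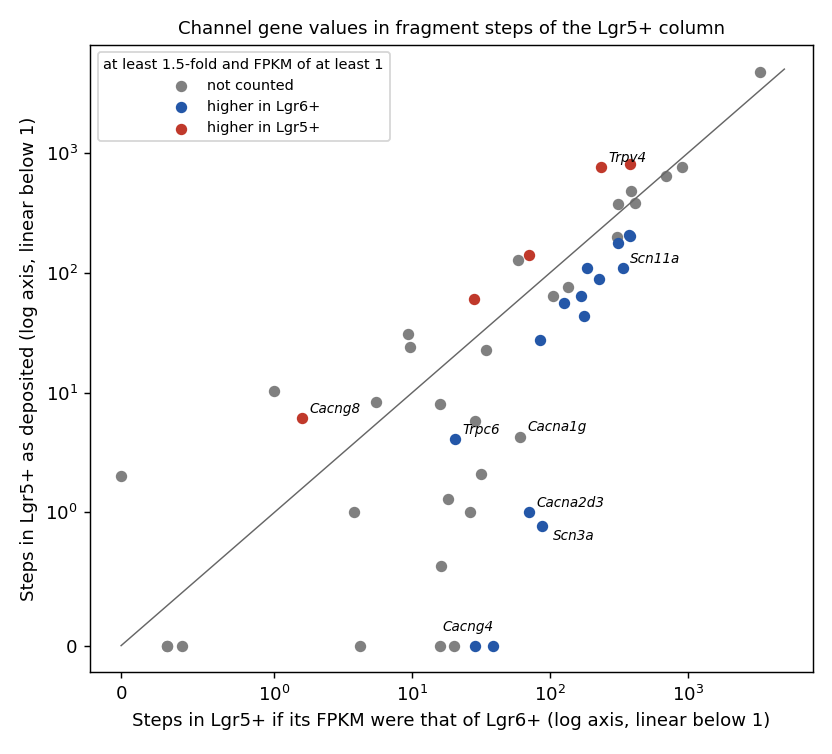
Channel genes in fragment steps of the Lgr5+ column, with the steps that the Lgr6+ FPKM would give there on the horizontal axis and the steps found on the vertical axis, both logarithmic above 1, where the line marks equal values and the colours mark the genes counted as at least 1.5-fold apart. *Cacna2d3*, *Scn3a* and *Cacng4* lie at or near 0 to 1 step where 28.4 to 87.1 would be held, and *Trpv4* lies above the line.

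Genes that work with these channels were taken from lists for calcium transport, store-operated entry, calcium release and channel binding partners. Of the 79 such genes in the table, 22 (27.8%) were counted toward Lgr6+ cells and 14 (17.7%) toward Lgr5+ cells, with a median log2 change of 0.13. Since 60 of the 79 genes reached an FPKM of 1, their background is better read among the 13436 genes of the table that did so, of which 28.5% were higher in Lgr6+ progenitors and 23.3% in Lgr5+ progenitors. The 22 and 14 genes are 36.7% and 23.3% of the 60.

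Calcium pumps and exchangers were represented by 13 genes, of which 5 were higher in Lgr6+ progenitors and 2 in Lgr5+ progenitors. *Atp2a2*, the main pump of the endoplasmic reticulum, had an FPKM of 20.8 in Lgr5+ and 39.5 in Lgr6+ cells. *Atp2b2*, the plasma membrane pump of the hair bundle, had 13.4 and 28.99. *Atp2a3* and *Atp2b3*, pumps of the same families, had log2 changes of 1.20 and 1.25. *Atp2c1*, the pump of the Golgi apparatus, went the other way with 27.8 and 15.2.

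Of the 5 store-operated entry genes, *Orai1* and *Orai2*, which encode the pore, were higher in Lgr5+ progenitors, with 13.9 against 5.58 and 16.4 against 9.92. Of the 5 genes for mitochondrial calcium uptake *Mcu*, the uniporter pore, was higher in Lgr5+ progenitors, with 8.85 against 4.08. Of the 6 phospholipase C genes 1 was higher in each population, and *Plcb3*, which forms IP3, had 17.5 and 9.40. Of the 11 calcium release partners 3 were higher in Lgr5+ and 2 in Lgr6+ cells. *Fkbp1b*, which binds ryanodine receptors, had 13.5 in Lgr5+ progenitors and was listed at 0 in Lgr6+ progenitors, and *Jph1*, which tethers the endoplasmic reticulum to the plasma membrane, had 9.44 and 0.660.

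Of the 13 genes for binding partners of the channels, 5 were higher in Lgr6+ progenitors, 1 was higher in Lgr5+ progenitors and 6 did not reach the minimum. *Ank3*, which encodes the ankyrin that anchors sodium channels, had an FPKM of 14.2 in Lgr5+ and 38.2 in Lgr6+ cells, and its relative *Ank2* had 3.05 and 7.29. *Nedd4l*, a ubiquitin ligase that removes sodium channels from the membrane, had 3.93 and 12.2. *Cabp2*, a calcium-binding protein that modulates the calcium channel of HCs, had the largest difference of the list, 3.36 against 49.4, a log2 change of 3.53. Of the 7 calmodulin and CaMKII genes *Calm2*, with 403 and 795, and *Camk2d*, with 7.87 and 15.3, were higher in Lgr6+ progenitors.

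Other cation channel genes were split, with 7 of 19 higher in Lgr6+ progenitors and 4 in Lgr5+ progenitors. *Pkd2l1*, which encodes a polycystin channel, had an FPKM of 27.8 in Lgr5+ and 3.06 in Lgr6+ cells, a log2 change of -2.83. *Pkd2*, its relative, had 5.82 and 9.82. The acid-sensing channel genes *Asic3* and *Asic1* were higher in Lgr6+ progenitors, with 6.89 against 31.6 and 6.54 against 15.6.

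**Figure D4:**
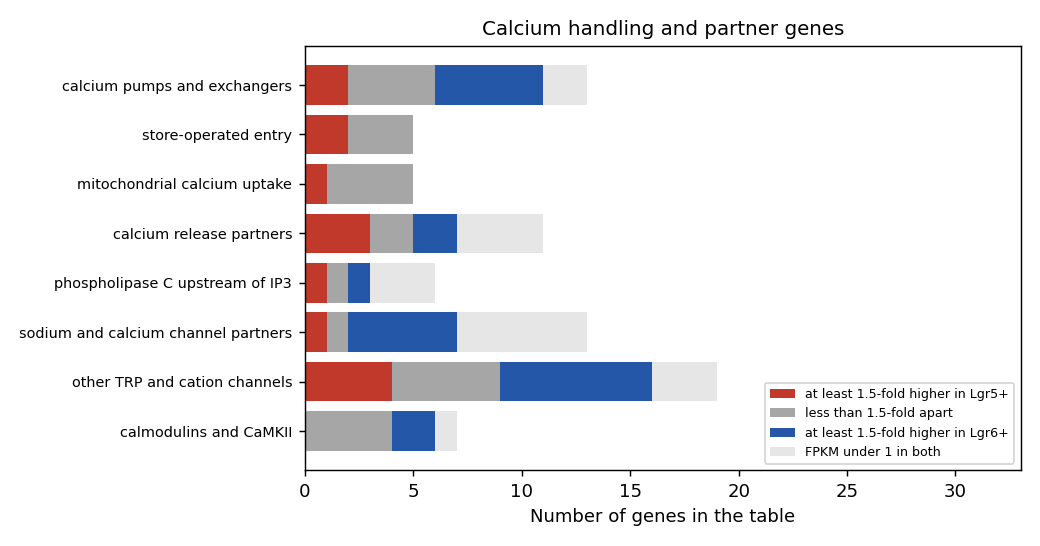
Number of genes of each calcium handling or partner list counted as higher in Lgr5+ progenitors, less than 1.5-fold apart, counted as higher in Lgr6+ progenitors, or under an FPKM of 1 in both populations. The lists of pumps and of binding partners each hold 5 genes higher in Lgr6+ progenitors, while the store-operated entry list holds 2 genes higher in Lgr5+ progenitors and none higher in Lgr6+ progenitors.

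The paper checked its sorted cells by re-sorting, immunostaining and q-PCR, and reported high purity and no Myo7a staining. It describes Lgr6+ cells as a subpopulation of the Lgr5+ progenitors. Here the RNA values of the sorted cells were read for cell type markers. *Lgr5* itself had an FPKM of 9.65 in Lgr5+ and 24.99 in Lgr6+ cells, and *Lgr6* had 2.06 and 2.90, so neither gene was higher in Lgr5+ progenitors. The populations came from 2 lines, and the reporter allele of each line belongs to 1 of these loci. For these genes the allele and the cell population cannot be told apart. All 10 SC markers reached an FPKM of 1 in at least 1 population, with a sum of 1150 in Lgr5+ and 497 in Lgr6+ cells, of which *Hes5* made up 43.9% in Lgr5+ cells. Of these markers 4 were higher in Lgr5+ progenitors and 2, *Otoa* and *Lfng*, in Lgr6+ progenitors. Among all genes that reached this minimum, 23.3% were higher in Lgr5+ and 28.5% in Lgr6+ progenitors. All 12 HC markers reached an FPKM of 1 as well, and their sum was 1363 and 2073. Of the HC markers 8 were higher by 1.5-fold or more in Lgr6+ progenitors and none in Lgr5+ progenitors, among them *Otof*, a calcium sensor of the ribbon synapse, with 41.6 and 171.01, and *Tmc1*, a subunit of the mechanotransduction channel, with 1.06 and 23.1.

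Markers of other cells were counted in the same way, beside the 28.5% and 23.3% of all genes reaching an FPKM of 1 that were higher in Lgr6+ and in Lgr5+ progenitors. All 8 endothelial markers were higher in Lgr6+ progenitors, with sums of 31.99 and 175.8, as were 8 of 10 macrophage markers, with sums of 3.88 and 263.5. Of the 10 macrophage markers 6 were listed at 0 in Lgr5+ progenitors. Of the 8 glial markers 3 were higher in Lgr6+ progenitors and 1, *Egr2*, in Lgr5+ progenitors, with sums of 181.6 and 333. Of the 12 neuronal markers, 11 of which reached an FPKM of 1, 3 (25%) were higher in each population, with sums of 370.2 and 279. The neuronal counts were thus near the shares of all genes. The neuronal markers higher in Lgr6+ progenitors were *Snap25*, with 7.63 and 53.4, *Rbfox3* and *Prph*. Those higher in Lgr5+ progenitors were *Tubb3*, with 1.18 and 0.0959, *Isl1* and *Syt1*. *Isl1* alone made up 62.9% and 41.9% of the neuronal sums, and *Slc17a7* was listed at 0 in both populations. Of the 6 erythroid markers 4 were higher in Lgr5+ progenitors, with sums of 629.8 and 108. Fibroblast markers summed to 325 and 344, and muscle and melanocyte markers summed to at most 5.26 in either population. The part of these markers in the values of the channel genes was not tested. In such bulk samples fewer cells of a type and less RNA per cell cannot be told apart.

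**Figure D5:**
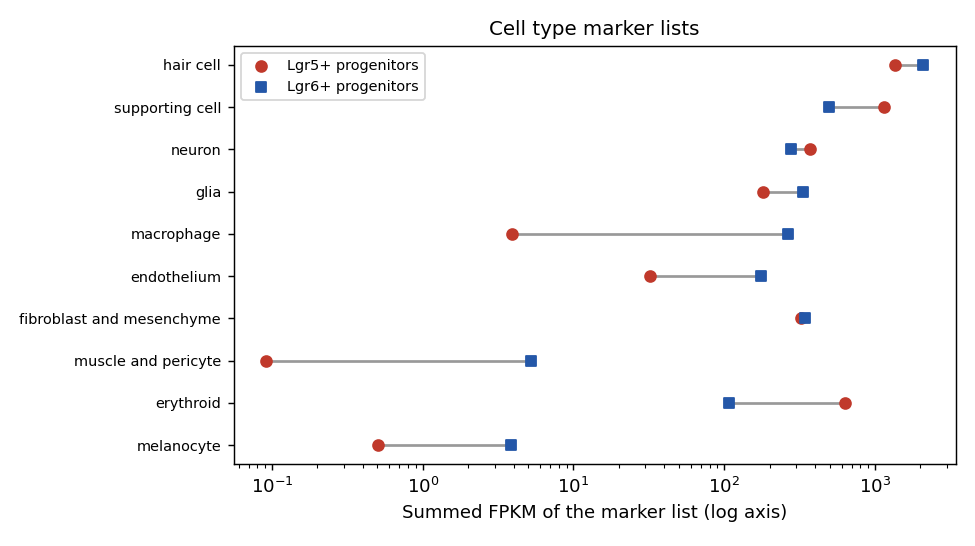
Summed FPKM of each cell type marker list on a logarithmic axis, with circles for Lgr5+ progenitors and squares for Lgr6+ progenitors. The macrophage sum is 3.88 in Lgr5+ and 263.5 in Lgr6+ cells, the HC sum is higher in Lgr6+ progenitors, and the SC and erythroid sums are higher in Lgr5+ progenitors.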

How the data were processed

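Per the labels, total RNA of 2 libraries per population was sequenced. The authors divided the RNA of each population into fractions as replicates, amplified it with the SMART-Seq v4 kit and ran Trimmomatic on the reads, TopHat for mapping and Cufflinks for the FPKM. Versions were not given in the sources used here. The deposited table holds 1 combined FPKM per gene for each population. The deposited fold changes, p-values and q-values of the authors' own comparison were not used. The paper names mm9 and the submitters' processing notes name mm10. Of 22497 genes matched by symbol to RefSeq on GRCm38, 98.8% of the table's intervals overlapped the gene, so positions were read as GRCm38, with starts raised by 1 because the table counts from 0. The table gives 1 interval for overlapping genes, which applied to 17 channel genes, among them *Cacna1c*, *Cacna2d2*, *Cacna2d3*, *Cacnb2*, *Trpc2*, *Trpm3* and *Trpm4*, whose values are less certain.

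The pseudocount was 1, the minimum FPKM 1 and the fold 1.5. Alternatives were a pseudocount of 0.1, other minimum values, scaling to the same sum or upper quartile, quantile normalization and a 2-fold threshold. Transcript lengths were those of GENCODE vM1, less 200 bases. Genes were named by a rule, which took each channel gene that reached the minimum, the others with counts and ranges, and partner genes counted as apart with an FPKM of at least 5. *Scn2a1*, *Cacna1d* and the neighbouring genes of clusters were added. The members and lists were chosen with earlier results of these data known. A few channel genes enter the counts and sums but are not reported here by name. No test was possible with 1 value per population. The counting was run on the Lgr5+ values with 2-fold changes made in well expressed genes and no noise. This checks only that genes are counted as defined, and not how reliable the counts are. Python 3.11.15, numpy 2.4.6, pandas 2.3.3 and matplotlib 3.10.9 were used.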

Additional observations from a re-analysis of the deposited data

How the results depend on the processing

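The 5 channel genes higher in Lgr5+ progenitors became 2 at a minimum FPKM of 5 or a 2-fold threshold, 3 after scaling to the same sum and 8 after quantile normalization. The 15 channel genes higher in Lgr6+ progenitors became 5 at a minimum FPKM of 5, and 7 both at a 2-fold threshold and when both populations had to reach an FPKM of 1. At a minimum of 5 the share of all genes was 10.1% in each direction. When both populations had to reach 1, it was 9.97% toward Lgr6+ and 10.5% toward Lgr5+ progenitors. After quantile normalization the 15 channel genes became 10, without *Cacna1a*, *Cacna1b*, *Cacng4*, *Scn3a* and *Trpc6*. The shares of all genes were then 13.8% toward Lgr6+ and 14.8% toward Lgr5+ progenitors. *Cacnb1* and *Cacng2* were added with a pseudocount of 0.1 and with the same sum. Fewer genes can pass under the stricter filters and the higher threshold by construction, and the cause of the other shifts was not tested. Scaling to the same sum raised the median log2 change of all genes that reached the minimum from 0.03 to 0.27. No channel gene counted in one direction was counted in the other under any alternative. For most alternatives this was fixed in advance. Filters, the pseudocount and the threshold cannot reverse a direction. Scaling to the same sum or upper quartile shifts values too little to carry a gene from one count to the other. The median log2 change of the channel genes moved from 0.06 to 0.20 with a pseudocount of 0.1, to 0.17 over the 12 genes at a minimum FPKM of 5, to 0.32 over the 20 genes that reached an FPKM of 1 in both and to 0.22 over the 27 genes with at least 10 steps in both, a setting chosen after seeing the data. For single samples the paper gives only ranges of read numbers and of mapped shares, so the depth of each library is not known. Those ranges were not compared with the fragment numbers inferred from the steps. The Lgr5+ values of genes near 1 step rest on about 1 fragment, so the size of their ratios is uncertain.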
